A study of Mus musculus with 6 samples.

Results

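Skeletal muscle builds its contractile apparatus from fast and slow versions of the same proteins, and 10 genes for such versions were chosen here by name. They are the myosin heavy chains Myh1, Myh2 and Myh4 and the troponin subunits Tnni2, Tnnt3 and Tnnc2 on the fast side, and Myh7, Tnni1, Tnnt1 and Tnnc1 on the slow side. Of these 10, 8 have a row among the 15295 genes of the count table, with 5 of 6 fast and 3 of 4 slow genes. Myh2 and Myh7 have no row and are not analysed here. The lowest count in the table is 1 and its gene filter was not given, so a missing row does not show absence. The genes were chosen because muscle genes were already known to be high in one arm of these data, so their difference between the arms is given as a description, and the calls of tests run across all genes are read as no support for it.

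Myosin heavy chain is the motor that pulls on actin, and its isoform sets how quickly a fibre shortens. Troponin sits on the actin filament and switches contraction on with calcium: troponin C binds the calcium, troponin I holds the filament off, and troponin T ties the complex to tropomyosin. In the mouse, Myh4 marks the fastest fibres (type IIB), Myh1 the intermediate fast fibres (type IIX), Myh2 the fast oxidative fibres (type IIA) and Myh7 the slow fibres, which also use Tnni1, Tnnt1 and Tnnc1. Tnnc1 is the heart's isoform as well.

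RNA was sequenced in bulk from 6 mouse tumours of NA13, a bladder cancer line of strain C57BL/6, with read pairs of 150 bases. There were 3 tumours labelled as carrying an shRNA against Ddr2 (shDdr2), a collagen receptor, and 3 with a scrambled shRNA (control). All 6 received IgG. The labels give neither the animals' age or sex nor the site of the graft, do not say whether tumours of an arm came from separate animals, and call the tumours xenografts although line and strain are both mouse, so tumour RNA and host RNA cannot be told apart by species. Any p-value here covers only the variation among these 6 samples, some of which could be technical.

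Total counts ranged from 15976000 to 19522985 in the libraries labelled shDdr2 and from 15560571 to 18917186 in control libraries. The targeted gene itself, Ddr2, was no lower with the shRNA, at 17.5 ± 12.0 CPM (counts scaled to a common library total) in libraries labelled shDdr2 against 14.5 ± 7.28 CPM in control libraries (log2 fold change 0.27, 95% interval -1.27 to 1.81; SD, n = 3 each), so every direction below is between libraries as labelled. On the first principal component, which held 50.1% of the variance, shDdr2 1 stood at -85.2 and the other 5 libraries between -16.3 and 45.7. On the second, with 22.2%, control 1 stood apart at 55.7, with the others between -34.3 and 6.75. The basal keratin gene Krt5 was abundant in both arms, at 5538 ± 394 CPM in tumours labelled shDdr2 and 5443 ± 507 CPM in control tumours, and the urothelial plaque gene Upk3a has no row.

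The fast and slow genes of a pair are separate genes with clearly different coding sequences, whereas the fast myosins are near-copies of each other, which bears on how reads can be assigned. In the GENCODE M21 transcripts on GRCm38, the aligned coding bases of Myh1 and Myh4 were 90.2% identical, and those of Myh4 and Myh7 were 77.4% identical. Tnni2 and Tnni1 matched at 65.0%, Tnnt3 and Tnnt1 at 66.4% and Tnnc2 and Tnnc1 at 67.1% of aligned coding bases. Of the 5677 windows of 150 bases in the Myh1 coding sequence, 15 also occurred exactly in Myh4, against 122 that also occurred in Myh2. No window of that length was shared within a troponin pair (0 of 397 in Tnni2, 0 of 667 in Tnnt3 and 0 of 331 in Tnnc2). The longest run that Myh1 and Myh4 share is 161 bases. It is shown in capitals, with 15 bases to either side in lower case, because a read lying inside it could come from either gene.
Myh1: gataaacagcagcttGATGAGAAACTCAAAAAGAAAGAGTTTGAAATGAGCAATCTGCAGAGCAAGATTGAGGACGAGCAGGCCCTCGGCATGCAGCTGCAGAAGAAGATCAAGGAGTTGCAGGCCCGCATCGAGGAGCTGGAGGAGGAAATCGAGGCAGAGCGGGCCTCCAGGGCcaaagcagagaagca
Myh4: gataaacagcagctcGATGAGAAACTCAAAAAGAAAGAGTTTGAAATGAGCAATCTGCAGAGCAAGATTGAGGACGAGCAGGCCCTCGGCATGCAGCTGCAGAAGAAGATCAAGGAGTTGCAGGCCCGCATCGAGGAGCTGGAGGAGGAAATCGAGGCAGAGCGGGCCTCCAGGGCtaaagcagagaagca
The first 150 coding bases of fast and slow troponin C are shown for contrast. Capitals mark the bases that differ from the other gene or have no partner in the alignment, 58 in Tnnc2 and 59 in Tnnc1.
Tnnc2: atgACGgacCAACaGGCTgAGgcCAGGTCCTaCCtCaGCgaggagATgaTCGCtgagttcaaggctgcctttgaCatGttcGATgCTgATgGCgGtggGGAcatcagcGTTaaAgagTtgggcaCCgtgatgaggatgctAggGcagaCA
Tnnc1: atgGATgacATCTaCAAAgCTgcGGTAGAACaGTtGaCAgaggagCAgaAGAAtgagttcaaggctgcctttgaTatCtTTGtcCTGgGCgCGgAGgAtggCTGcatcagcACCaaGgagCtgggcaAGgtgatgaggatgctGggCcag

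Most of these genes were highest in shDdr2 2 and lowest in control 1. Promoters are shown as background, and their part in these levels was not tested. RefSeq windows on GRCm38.p6, from 250 bases before to 50 after a gene's start, were matched for 6 of the 8 genes measured, and 4 are printed, for the fast myosins and the troponin C pair. Both strands were searched for CANNTG (the E-box bound by MyoD-type factors), CATTCC (the MCAT element bound by TEAD factors), TATAAA and the MEF2 consensus, and capitals mark matches. Myh1 at chr11:67199852-67200151 and Myh4 at chr11:67237562-67237861, both on the plus strand, each hold 1 MEF2 match, and a TATAAA match on the other strand lies within it. Each also holds 1 CATTCC match, and Myh4 holds 3 E-box matches and Myh1 none. Tnnc1 at chr14:31208062-31208361 on the plus strand and Tnnc2 at chr2:164779685-164779984 on the minus strand each hold 2 E-box matches and no MEF2 or TATAAA match, and Tnnc1 holds 1 CATTCC match. Among 32851 windows of 300 bases, 3.2% held the MEF2 consensus, 72.3% an E-box, 14.7% CATTCC and 13.6% TATAAA. A match is a string of letters and does not show a bound site. The Myh4 window ends before the gene start at 67238029 in GENCODE, so RefSeq and GENCODE place this start differently.
Myh1: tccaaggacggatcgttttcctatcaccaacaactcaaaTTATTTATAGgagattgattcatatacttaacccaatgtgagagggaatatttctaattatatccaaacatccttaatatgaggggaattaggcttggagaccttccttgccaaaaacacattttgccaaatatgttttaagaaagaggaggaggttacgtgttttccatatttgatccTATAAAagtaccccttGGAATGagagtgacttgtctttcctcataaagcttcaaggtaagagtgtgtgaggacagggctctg
Myh4: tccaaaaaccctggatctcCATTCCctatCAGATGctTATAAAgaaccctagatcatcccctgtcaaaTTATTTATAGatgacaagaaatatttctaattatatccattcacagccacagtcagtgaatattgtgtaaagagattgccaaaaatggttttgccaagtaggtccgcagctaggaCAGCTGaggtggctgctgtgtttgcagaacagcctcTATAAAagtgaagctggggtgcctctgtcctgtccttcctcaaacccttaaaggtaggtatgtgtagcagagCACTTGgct
Tnnc2: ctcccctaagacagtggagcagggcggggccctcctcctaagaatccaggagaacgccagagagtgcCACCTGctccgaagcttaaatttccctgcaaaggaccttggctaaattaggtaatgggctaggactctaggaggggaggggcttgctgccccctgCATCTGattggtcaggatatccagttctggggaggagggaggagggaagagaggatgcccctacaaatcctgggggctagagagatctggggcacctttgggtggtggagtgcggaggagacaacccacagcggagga
Tnnc1: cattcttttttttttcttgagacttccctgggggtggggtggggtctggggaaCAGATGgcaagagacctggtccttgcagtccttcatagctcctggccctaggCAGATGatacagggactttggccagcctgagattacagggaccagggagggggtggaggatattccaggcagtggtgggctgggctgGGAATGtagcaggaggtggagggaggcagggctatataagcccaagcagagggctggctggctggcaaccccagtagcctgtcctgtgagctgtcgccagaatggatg

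All 8 genes had higher mean levels in the tumours labelled shDdr2, and the fold changes of the fast genes had the higher median, although Myh1, a fast gene, differed by less than slow Tnnt1 and Tnnc1. The fitted log2 fold changes ran from 2.33 to 6.92 in the 5 fast genes, with a median of 4.71, and from 1.48 to 2.73 in the 3 slow genes, with a median of 2.58. The median over all 14498 genes tested was 0.04. The groups did not overlap in 4 of 5 fast and 2 of 3 slow genes, where 2.21% of all genes tested were higher and 2.11% lower without overlap. With edgeR's quasi-likelihood test and an adjusted p threshold of 0.05, 0 of the 8 genes were called, as were 0 of all genes tested (0%), in either direction. At an unadjusted p under 0.05, edgeR counted 144 genes higher (0.993%) and 65 lower. DESeq2 called 2 of the 8 genes higher, Tnni2 and Tnnc1, and 0.235% of all genes. It gave no p for Myh4. Since the genes were chosen on this contrast, these counts support nothing. In bulk tissue, fewer muscle cells and less RNA per muscle cell cannot be told apart.

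**Figure D1:**
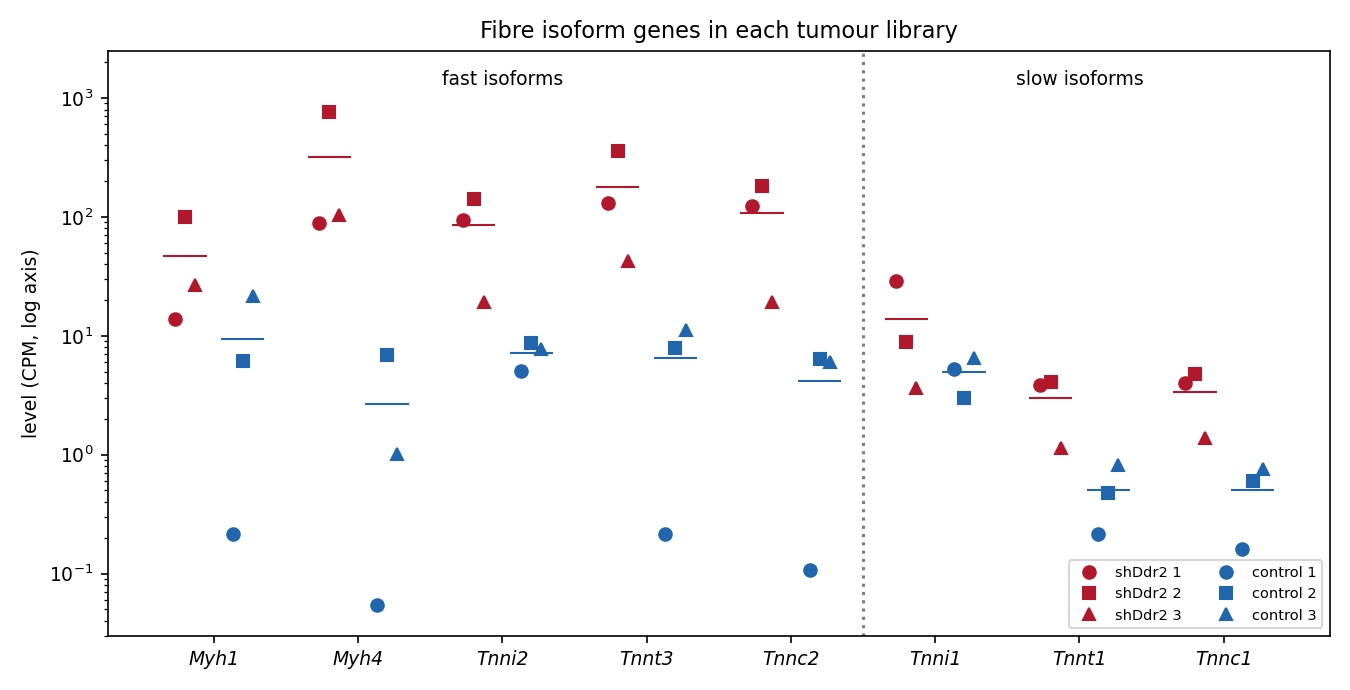
Level of each fibre isoform gene in each library (CPM on a log axis), with libraries labelled shDdr2 in red left of control libraries in blue. Symbols give the replicate number and horizontal lines the group means. Control 1 lies far below the other libraries for Myh1, Myh4, Tnnt3 and Tnnc2, between 0.0539 and 0.216 CPM, but not for Tnni2 (5.07 CPM) or Tnni1 (5.23 CPM).

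Among the motors, Myh4 (chromosome 11, 67238029 to 67260446, plus strand, GRCm38, 39 exons) had 1240, 15667 and 1812 counts in shDdr2 1 to 3, against 1, 115 and 16 counts in control 1 to 3. These are 89.5, 763 and 104 CPM in the tumours labelled shDdr2, against 0.0539, 6.87 and 1.01 CPM in control tumours. Every tumour labelled shDdr2 lay above every control tumour, and the lowest was 13.0 times the highest control. On the log2 scale the fold change came to 6.92 (SE 1.58) with a 95% interval of 3.22 to 10.6, to 5.20 without shDdr2 2 and to 9.26 without control 2. The single count in control 1 has an exact Poisson interval of 0.0253 to 5.57 counts, which covers counting error only.

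Myh1 (chromosome 11, 67200052 to 67224575, plus strand, 40 exons) overlapped between the arms. Its counts were 193, 2042 and 466 (13.9, 99.5 and 26.8 CPM) in shDdr2 1 to 3, against 4, 103 and 344 (0.216, 6.15 and 21.6 CPM) in control 1 to 3. Control 3 lay above shDdr2 1. Within each replicate number the tumour labelled shDdr2 was higher. These numbers come from the titles and the pairing is not clear-cut, so this does not offset the overlap. The log2 fold change was 2.33 (SE 1.26, 95% interval -0.62 to 5.28), but 1.13 without shDdr2 2, 3.88 without control 3 and 3.12 with the replicate number as a block. Myh1 overlaps the antisense gene Myhas, and without a stated strand setting reads of the pair cannot be told apart.

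The balance between the fast myosins therefore differed from library to library. This ratio was chosen after its values were seen. Myh4 made up 86.5%, 88.5% and 79.5% of the counts of Myh4 and Myh1 together in shDdr2 1 to 3, against 20.0%, 52.8% and 4.44% in control 1 to 3. The 95% Wilson intervals were 84.7 to 88.2%, 88.0 to 88.9% and 77.8 to 81.1% in the tumours labelled shDdr2, against 3.62 to 62.4%, 46.1 to 59.3% and 2.75 to 7.10% in control tumours. The wide interval of control 1 rests on 5 counts, whereas control 3 had 360 counts of the pair and nearly all were Myh1. Per kilobase of exon, the share averaged 85.5 ± 4.52% in tumours labelled shDdr2 and 26.6 ± 25.2% in control tumours (SD, n = 3 each), a difference of 59.0 percentage points that stood at 48.0 without control 3.

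Troponin I showed another pattern. Fast Tnni2 (chromosome 7, 142441808 to 142444410, plus strand, 7 exons) had 93.9, 141 and 19.1 CPM in shDdr2 1 to 3, against 5.07, 8.66 and 7.79 CPM in control 1 to 3. The control values rest on 94, 145 and 124 counts. The groups did not overlap, and the control tumours stayed within a narrow band, unlike for the other fast genes. Its log2 fold change was 3.56 (SE 0.69). Slow Tnni1 (chromosome 1, 135779434 to 135810989, plus strand, 9 exons) had 28.7, 8.87 and 3.62 CPM in shDdr2 1 to 3, against 5.23, 2.99 and 6.54 CPM in control 1 to 3. The groups overlapped, with shDdr2 3 below 2 of the 3 controls. The log2 fold change of 1.48 (SE 0.73) was 0.35 without shDdr2 1, the library that stands apart on the first principal component. In control 1, Tnni2 and Tnni1 had 94 and 97 counts while the other 6 genes had 1 to 4 counts each.

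Troponin T and troponin C separated the arms for both fibre types, though narrowly for the slow genes. Fast Tnnt3 (chromosome 7, 142498836 to 142516009, plus strand, 18 exons) had 130, 360 and 42.5 CPM in shDdr2 1 to 3, against 0.216, 7.95 and 11.3 CPM in control 1 to 3. Fast Tnnc2 (chromosome 2, 164777161 to 164779967, minus strand, 6 exons) had 123, 183 and 19.2 CPM, against 0.108, 6.39 and 6.03 CPM. In both, shDdr2 2 was the highest and control 1 the lowest library, and the log2 fold changes were 4.78 (SE 1.26) and 4.71 (SE 1.25). Slow Tnnt1 (chromosome 7, 4504570 to 4516382, minus strand, 14 exons) had 3.83, 4.09 and 1.15 CPM in shDdr2 1 to 3, against 0.216, 0.478 and 0.817 CPM in control 1 to 3. Slow Tnnc1 (chromosome 14, 31208312 to 31211729, plus strand, 6 exons) had 3.97, 4.73 and 1.38 CPM, against 0.162, 0.597 and 0.754 CPM. The slow pair rests on few reads, 20 to 97 counts in the tumours labelled shDdr2 and 3 to 13 in control tumours, with log2 fold changes of 2.58 (SE 0.68) and 2.73 (SE 0.69). For Tnnt1 the Poisson interval of shDdr2 3 (20 counts, 12.2 to 30.9) overlapped that of control 3 (13 counts, 6.92 to 22.2). For Tnnc1 that of shDdr2 3 (24 counts, 15.4 to 35.7) also overlapped that of control 3 (12 counts, 6.20 to 21.0). Tnnc1 overlaps Nisch, Tnnc2 overlaps Ube2c and Tnnt3 overlaps Prr33, each on the opposite strand, so their counts may hold reads of those genes.

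Levels can be set side by side between genes only per length. Per kilobase of merged exons, the tumours labelled shDdr2 averaged 136 ± 104 CPM for Tnnc2, 112 ± 104 for Tnnt3, 56.7 ± 41.2 for Tnni2, 53.0 ± 64.0 for Myh4, 7.36 ± 7.26 for Myh1, 3.82 ± 3.68 for Tnni1, 3.23 ± 1.69 for Tnnc1 and 1.37 ± 0.739 for Tnnt1 (SD, n = 3). Among neighbours in this order, Tnnc1 and Tnnt1 differed by more than the larger of their SDs, and the others did not. In control tumours the order was Tnnc2 at 5.22 ± 4.41, Tnni2 at 4.79 ± 1.25, Tnnt3 at 4.09 ± 3.58, Myh1 at 1.47 ± 1.74, Tnni1 at 1.37 ± 0.499, Tnnc1 at 0.485 ± 0.295, Myh4 at 0.439 ± 0.614 and Tnnt1 at 0.229 ± 0.137 CPM per kilobase (SD, n = 3). In the control order, Tnni1 and Tnnc1 were the neighbours that differed by more than the larger SD. By mean, Myh4 stood above Myh1 and Tnni1 in tumours labelled shDdr2 and below them in control tumours, but in control 2 it lay above both, at 1.14 CPM per kilobase against 0.969 and 0.830. With the median length of the protein-coding transcripts as divisor, Tnni1 averaged 18.3 CPM per kilobase in tumours labelled shDdr2 and lay above Myh1 at 7.82, since its merged exons are 3.6 kb and its median transcript 0.749 kb.

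Within each troponin pair, the fast gene took most of the counts in every library except control 1. For troponin T, Tnnt3 took 97.1%, 98.9% and 97.4% of the counts of the pair in shDdr2 1 to 3, against 4 of 8 counts, 94.3% and 93.2% in control 1 to 3. For troponin C, Tnnc2 took 96.9%, 97.5% and 93.3%, against 40.0%, 91.5% and 88.9%. Control 1 had 8 counts of the troponin T pair and 5 of the troponin C pair, so its shares are poorly determined. For troponin I, Tnni2 took 76.6%, 94.1% and 84.1%, against 49.2%, 74.4% and 54.4%, with 191 to 228 counts of the pair in the control tumours. The tumours labelled shDdr2 lay above all controls in the 3 pairs. Several of these gaps were within counting error. The 95% Wilson interval of control 2 reached 97.1% for troponin T, above the lower bounds of shDdr2 1 (96.3%) and shDdr2 3 (96.0%). For troponin C the interval of shDdr2 3 (90.2 to 95.5%) overlapped those of control 2 and control 3, and for troponin I that of shDdr2 1 (74.5 to 78.5%) overlapped that of control 2 (67.8 to 80.0%).

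Per kilobase of merged exons, the fast share of troponin T averaged 98.4 ± 0.687% in tumours labelled shDdr2 and 83.0 ± 21.5% in control tumours, that of troponin C 96.8 ± 1.78% and 77.0 ± 26.5%, and that of troponin I 93.0 ± 4.38% and 77.2 ± 9.14% (SD, n = 3 each). The differences were 15.4, 19.8 and 15.8 percentage points. Without control 1 they were 2.95 points for troponin T and 4.54 points for troponin C, against 12.2 points for troponin I. For troponin I the difference was 25.6 points on raw counts and 24.4 points with the median transcript length.

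**Figure D2:**
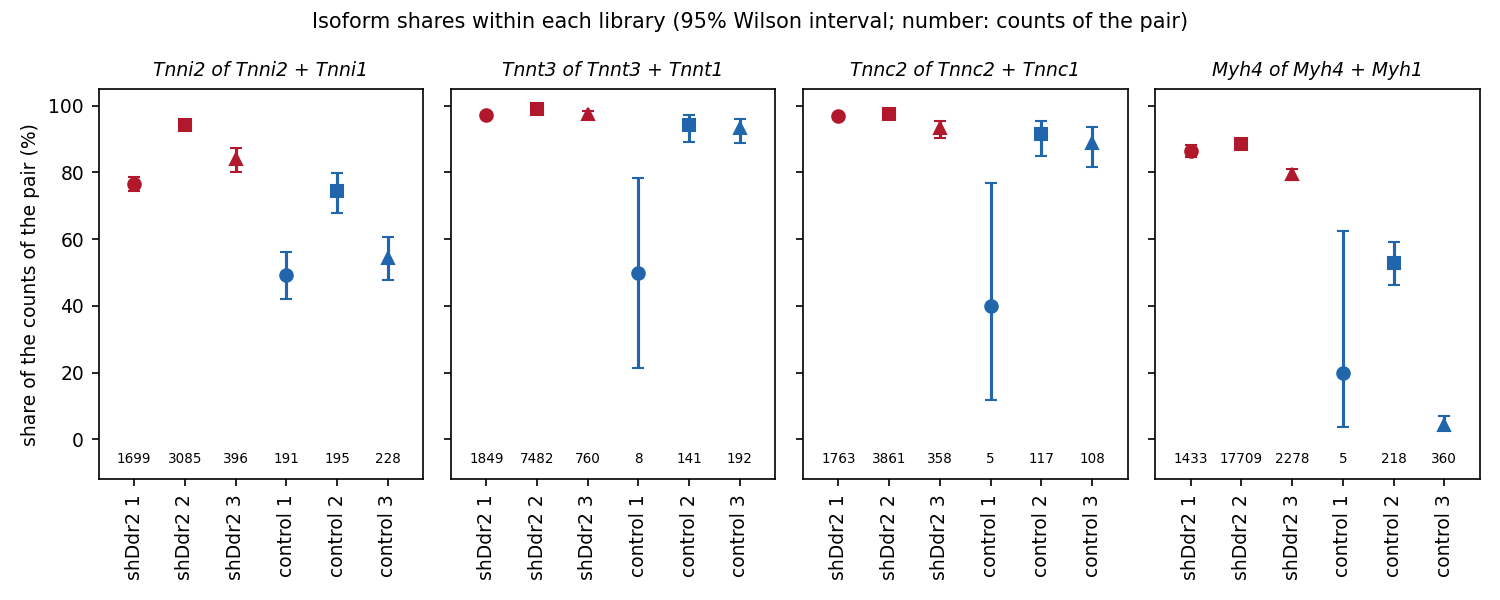
Share of the counts of each isoform pair taken by the first-named gene in each library (percent), with 95% Wilson intervals and the counts of the pair printed below. Libraries labelled shDdr2 are red and left of control libraries in blue. The troponin T and C shares of control 2 and 3 lie between 88.9 and 94.3%, within 10 percentage points of the tumours labelled shDdr2, while the Myh4 share of control 3 is 4.44%.

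Summarised as the mean log2 CPM of each class, the fast genes stood at 6.16, 7.87 and 5.08 in shDdr2 1 to 3, against -1.10, 2.86 and 2.74 in control 1 to 3. The slow genes stood at 2.95, 2.51 and 0.94, against -0.34, 0.13 and 0.81. Fast minus slow was 3.21, 5.37 and 4.14 in the tumours labelled shDdr2, against -0.76, 2.73 and 1.93 in control tumours. The means were 4.24 ± 1.08 and 1.30 ± 1.83 (SD, n = 3 each), a difference of 2.94 on the log2 scale that was 1.91 without control 1 and 2.63 without the myosins. By group mean, tumours labelled shDdr2 thus had both more of each class and a larger excess of fast over slow, as a description of these 6 libraries. The arms came close in places, with slow means of 0.94 in shDdr2 3 and 0.81 in control 3. Fast minus slow was 3.21 in shDdr2 1 and 2.73 in control 2.

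The genes of a class did not all follow the same profile. Over the 6 libraries, the root mean square distance of a gene's centred log2 CPM from the mean of the other members of its class was 0.57 for Tnnt3 and 0.73 for Tnnc2, against 1.52 for Myh1, 1.78 for Tnni2 and 1.93 for Myh4. Tnni2 lay nearer the mean of the slow genes, at 0.77, than that of the other fast genes. Among slow genes the distances were 0.40 for Tnnt1, 0.64 for Tnnc1 and 1.03 for Tnni1.

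Outside the 8 genes, those nearest the mean fast profile were Atp2a1, the calcium pump of fast fibres (distance 0.40), Actn3, the alpha-actinin of fast fibres (0.521), the Z-disc genes Pdlim3 (0.626) and Ldb3 (0.636), and Ckm, muscle creatine kinase (0.671). Nearest the mean slow profile were Acyp2, a muscle acylphosphatase (0.337), Hspb2, a small heat shock protein of muscle (0.353), Rrad (0.502), Aif1l (0.505) and Pgam2, the muscle phosphoglycerate mutase (0.515). Levels were low for Acyp2, Hspb2 and Aif1l. Hspb2 stood at 0.746 to 3.32 CPM in tumours labelled shDdr2 and 0.431 to 0.717 CPM in control tumours. Rrad and Pgam2 were higher than these genes in every library. Rrad stood at 5.22 to 16.7 CPM in tumours labelled shDdr2 and 2.37 to 6.29 CPM in control tumours.

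As a rough measure against muscle RNA of the same library, each isoform was expressed per 100 counts of 10 listed skeletal muscle genes (Acta1, Ckm, Ttn, Neb, Ryr1, Cacna1s, Mb, Pygm, Xirp2 and Eno3). Ckm is also among the genes nearest the fast profile, so the divisor may itself depend on fibre type. The 10 genes had 6572, 37081 and 4807 counts in shDdr2 1 to 3, against 181, 845 and 1557 in control 1 to 3, so the values of control 1 are the least certain. Of the 181 counts in control 1, Eno3 had 94, Mb 30 and Ryr1 27. Myh4 stood at 18.9, 42.3 and 37.7 per 100 in the tumours labelled shDdr2, against 0.552, 13.6 and 1.03 in control tumours, with no overlap. Myh1 stood at 2.94, 5.51 and 9.69, against 2.21, 12.2 and 22.1, which puts controls 2 and 3 above all tumours labelled shDdr2. Tnnt3 stood at 27.3, 20.0 and 15.4, against 2.21, 15.7 and 11.5, and the groups overlapped. Slow Tnnt1 stood at 0.807, 0.227 and 0.416 per 100, below its 2.21, 0.947 and 0.835 in control tumours without overlap. The nearest values, 0.807 in shDdr2 1 and 0.835 in control 3, rest on 53 and 13 Tnnt1 counts. The 13 counts have a Poisson interval of 6.92 to 22.2, so this gap is within counting error. Tnnc1 stood at 0.837, 0.262 and 0.499, against 1.66, 1.18 and 0.771, with shDdr2 1 above control 3. Relative to the 10 listed muscle genes, only Myh4 of the 8 was thus higher in every tumour labelled shDdr2 than in every control. Outside the 8, the fast companions Atp2a1 and Actn3 were so as well, as given below. Without Ryr1, Mb and Eno3 in the list, the lowest Myh4 value in tumours labelled shDdr2 was 22.5 in shDdr2 1, close to 20.9 in control 2.

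**Figure D3:**
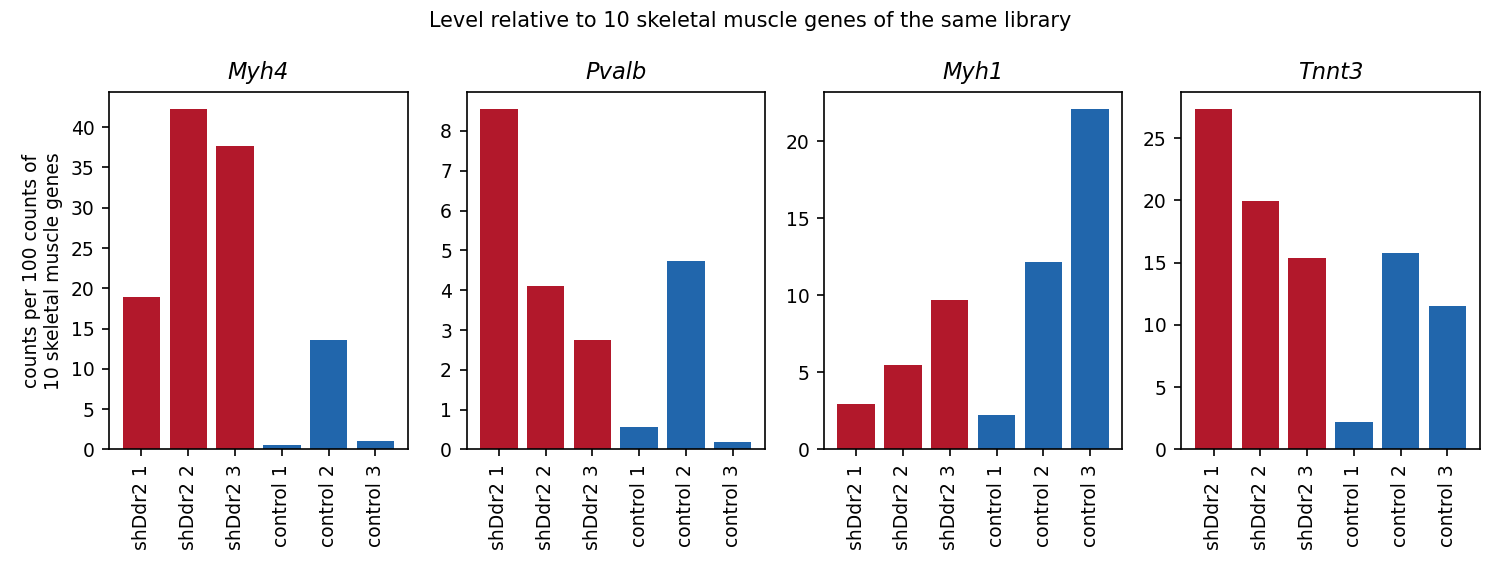
Counts per 100 counts of 10 skeletal muscle genes of the same library, for the fast myosin Myh4, the calcium buffer Pvalb, the fast myosin Myh1 and the fast troponin Tnnt3, with libraries labelled shDdr2 in red left of control libraries in blue. Myh4 is at 18.9 to 42.3 in the red bars and at 0.552 to 13.6 in the blue bars, and Myh1 is highest in control 3 at 22.1.

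Companion genes that fast or slow fibres use were listed by name and compared in the same way. Of 8 fast companions, 6 have a row, and all 6 were higher in tumours labelled shDdr2 without overlap, with a median log2 fold change of 4.51, where 2.21% of all genes tested were higher without overlap. None was called by edgeR (0 of 6), while DESeq2 called 4 of 6, against 0.235% of all genes. The companions were listed with earlier results of these data known, so these counts support nothing. Pvalb, the parvalbumin that buffers calcium in the fastest fibres, stood at 40.6, 74.3 and 7.58 CPM in shDdr2 1 to 3, against 0.0539, 2.39 and 0.189 CPM in control 1 to 3. Like Myh4, it was lower in control 3 than in control 2, at 0.193 against 4.73 per 100 muscle counts. Atp2a1 stood at 79.6, 471 and 47.5 CPM, against 0.431, 6.75 and 5.66 CPM. Actn3 stood at 49.2, 207 and 22.3 CPM, against 0.0539, 3.29 and 7.04 CPM. Per 100 muscle counts, Atp2a1 stood at 16.8, 26.05 and 17.2, against 4.42, 13.4 and 5.78. Actn3 stood at 10.4, 11.5 and 8.07 per 100, against 0.552, 6.51 and 7.19. Both were without overlap, like Myh4, while Mylpf, Myl1, Pvalb and Casq1 overlapped per 100 muscle counts. Without Ryr1, Mb and Eno3 in the muscle list, Atp2a1 and Actn3 overlapped as well. The fast light chains Mylpf and Myl1 and the calsequestrin Casq1 had log2 fold changes of 3.98, 4.23 and 4.26.

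Of 9 slow companions, 5 have a row and 4 were tested, with a median log2 fold change of 0.38. Myoz2, a Z-disc protein of slow fibres and heart, stood at 3.54, 2.24 and 1.61 CPM in shDdr2 1 to 3, against 0.593, 0.239 and 1.07 CPM in control 1 to 3, without overlap. Casq2, the slow and cardiac calsequestrin, overlapped, at 23.0, 9.94 and 7.35 CPM against 8.85, 4.42 and 8.86 CPM. Atp2a2 and Tpm3, which many other cells also make, were at 522 ± 152 and 396 ± 24.98 CPM in tumours labelled shDdr2, against 566 ± 109 and 424 ± 63.9 CPM in control tumours (SD, n = 3 each). Myh7b had 1 to 9 counts in every library and was not tested. Among listed slow companions the 4 genes Myl2, Myl3, Mybpc1 and Csrp3 have no row. A gene without reads in some library may have been left out, so the levels of these genes are unknown. The median rests on Myoz2, Casq2, Atp2a2 and Tpm3 alone.

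Of 10 listed regulators of fibre type, 7 have a row and 6 were tested. The arms overlapped in all 6, as in most genes. Of all genes tested, 2.21% were higher and 2.11% lower without overlap. Sox6, which represses slow genes, was at 20.8 ± 6.66 CPM in tumours labelled shDdr2 and 18.3 ± 0.881 CPM in control tumours, and Tbx15, a factor of fast glycolytic fibres, at 11.4 ± 5.73 and 8.98 ± 2.89 CPM. Nfatc1 and Tead1 were at 18.7 ± 6.23 and 93.4 ± 46.4 CPM, against 16.8 ± 1.75 and 92.5 ± 26.2 CPM. Mef2c, which activates muscle genes, had a log2 fold change of 1.60 (SE 0.59), at 10.5, 34.1 and 16.6 CPM against 3.02, 6.21 and 11.1 CPM (SD, n = 3 for all means). Eya1 had 1 to 48 counts and was not tested.

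**Figure D4:**
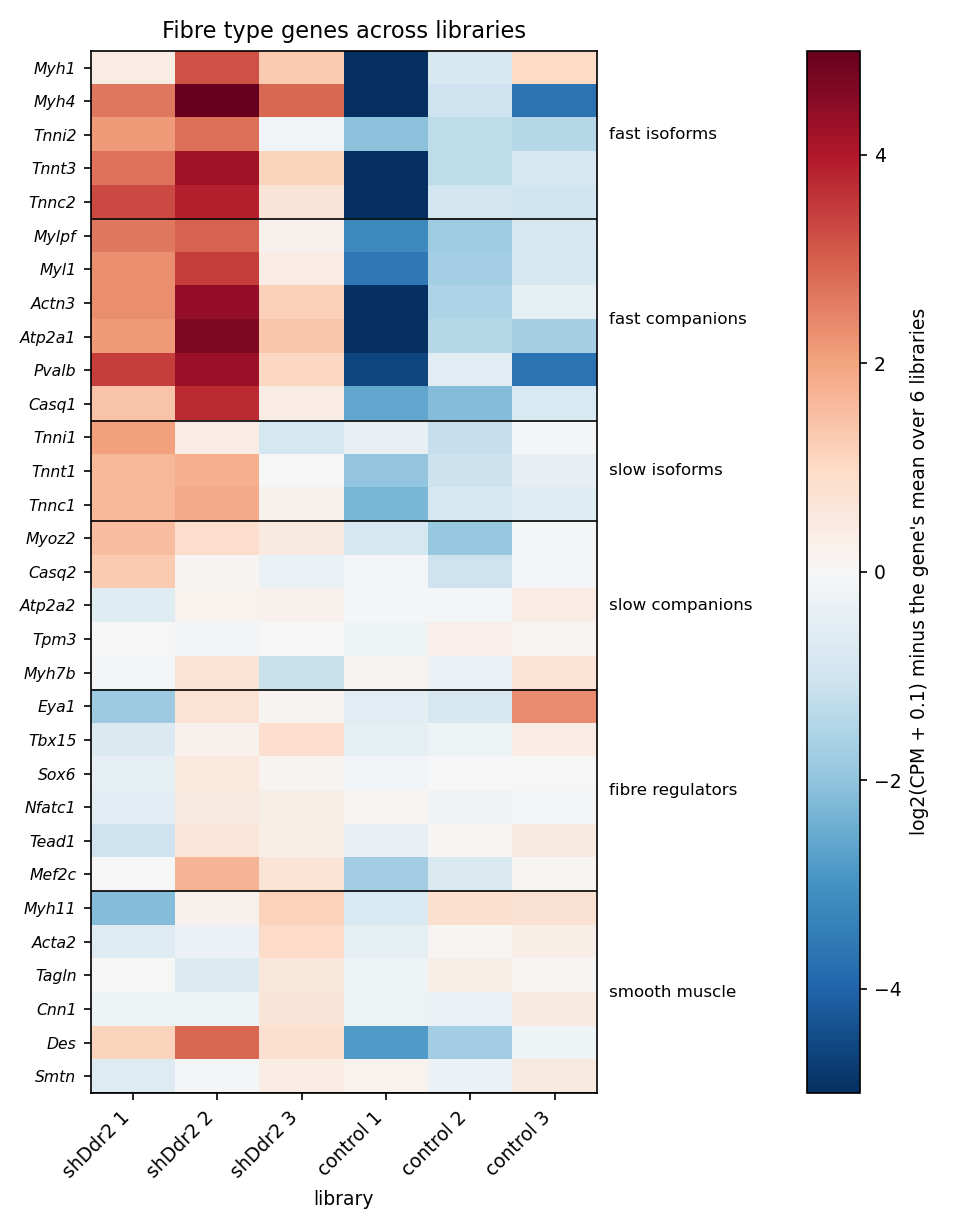
Log2(CPM + 0.1) of fibre type genes minus each gene's mean over the 6 libraries, with red above and blue below the mean and colours at their limit beyond 5 in either direction. The 3 columns of libraries labelled shDdr2 are left of the 3 control columns. Control 1 is deep blue for Myh4, Tnnt3, Tnnc2, Atp2a1 and Actn3, while Atp2a2 and Tpm3 stay near their means.

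Markers of other tissues differed between the arms to different extents and in both directions, and their part in the result was not tested. The median log2 fold change was 2.23 for heart, 1.37 for adipocyte and 1.19 for keratinocyte genes. It was 0.06 for smooth muscle, -0.17 for nerve (1 gene tested) and -0.52 for epithelial genes. The 10 skeletal muscle genes with a row, of 12 listed, summed to 276 to 1807 CPM in tumours labelled shDdr2 and 9.76 to 97.9 CPM in control tumours. Acta1, skeletal alpha-actin, stood at 258, 878 and 129 CPM in shDdr2 1 to 3, against 0.270, 17.2 and 40.7 CPM in control 1 to 3. Of 9 genes of developing or regenerating muscle (Myh3, Myh8, Myod1, Myog, Myf5, Myf6, Pax7, Mymk and Mymx), 0 have a row. A missing row does not show that they were absent. Of 7 heart genes, 4 have a row and they summed to 17.4 to 36.0 CPM in tumours labelled shDdr2 and 9.98 to 18.9 CPM in control tumours. Tnnt2, the cardiac troponin T, overlapped at 12.8, 14.9 and 11.02 CPM against 16.6, 7.71 and 12.9 CPM, while Actc1, cardiac actin, did not, at 2.24, 7.75 and 2.30 CPM against 0.593, 0.299 and 1.26 CPM. Myl4, the atrial light chain, was at 8.66, 13.0 and 3.56 CPM, against 0.485, 0.836 and 4.09 CPM. Tnni3, the cardiac troponin I, had at most 10 counts in tumours labelled shDdr2 and at most 19 in control tumours. The 6 smooth muscle genes summed to 437 to 775 CPM and 399 to 571 CPM. Of these, Des, the desmin shared with skeletal muscle, was the only one without overlap, at 99.1, 336 and 78.1 CPM against 6.20, 13.3 and 39.5 CPM. Acta2 and Tagln were at 153 ± 96.3 and 171 ± 70.2 CPM, against 138 ± 35.9 and 172 ± 30.9 CPM (SD, n = 3 each).

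Of 6 adipocyte genes, Adipoq, Plin1 and Lep have no row and the other 3 summed to 43.1 to 52.6 CPM in tumours labelled shDdr2 and 20.4 to 37.2 CPM in control tumours. Fabp4 was at 32.8 ± 16.6 and 27.4 ± 7.67 CPM, and Car3, which muscle also makes, at 12.9 ± 13.2 and 1.63 ± 1.72 CPM (SD, n = 3 each). The 6 keratinocyte genes summed to 351 to 1889 CPM and 368 to 515 CPM, with the highest value in shDdr2 1, which also had the highest Tnni1. Of 5 nerve and Schwann cell genes, 3 have a row and they summed to 60.7 to 98.7 CPM and 85.6 to 101 CPM. Of 7 urothelial and epithelial genes, 6 have a row and they summed to 5652 to 6407 CPM and 5960 to 6617 CPM, and 4 of them, Krt18, Krt8, Epcam and Cldn4, were lower in every tumour labelled shDdr2 than in every control tumour, as were 2.11% of all genes tested. Krt18 and Krt8 are named after their values were seen. Krt18 was apart only narrowly, at 72.05 CPM in shDdr2 2 against 72.35 CPM in control 3. Krt8 had 4 counts in shDdr2 1, against 242 and 175 in shDdr2 2 and 3.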

How the data were processed

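The authors deposited whole-number counts per Entrez gene and log2 values of the same libraries. Build GRCm38.p5 and the tools Bowtie2 2.1.0, RSEM 1.2.31 and limma appear in the submitters' processing notes without their roles, so the counts may be rounded estimates. The annotation, gene filter and strand setting were not given in the sources used here. The lowest count in the table is 1. The deposited log2 values equal log2(count / library factor + 1) and were used only for that check and 1 alternative.

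Symbols came from RefSeq by Entrez number (14876 matched, 419 did not), and coordinates and exon lengths from GENCODE M21 (GRCm38). The 15295 genes were filtered with filterByExpr, leaving 14498, scaled by TMM, and fitted with edgeR 4.0.16 (quasi-likelihood F test, robust) in R 4.3.3. P-values were two-sided and Benjamini-Hochberg adjusted over all genes. The 8 fibre genes passed the filter. CPM used TMM-scaled totals, and mean log2 CPM a prior count of 2. The fit was tested on simulated counts. The members and lists were chosen with earlier results of these data known. Named are all isoforms and companions and most regulators with a row, and of other lists chiefly the 3 members with the highest mean CPM. Some listed genes are not reported here. Genes named as nearest are the 5 with the smallest distance to each profile.

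Replicate numbers come from the titles. Deviations from the group means correlated at 0.299, 0.267 and 0.253 between libraries numbered 1, 2 and 3, all above the criterion of 0.1, although shDdr2 2 also correlated with control 3 at 0.254, so the pairing is not clear-cut. By the criterion the numbers were treated as pairs in an alternative fit. Chi-square per degree of freedom between replicates was 24.8 to 229, above counting noise. Other alternatives were DESeq2 1.42.0, limma 3.58.1, other scalings and filters, and leaving out each library. The myosin pair of Myh7 could not be formed, because Myh7 has no row. Wilson and Poisson intervals cover counting error only.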

Additional observations from a re-analysis of the deposited data

How the results depend on the processing

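No gene was called by edgeR in either direction (0 and 0 of 14498, with 209 at an unadjusted p under 0.05) under the other scalings, the other filters or any left-out library, nor by either limma fit, whereas DESeq2 called 34 higher and 6 lower. The replicate block also gave 0 calls (lowest adjusted p = 0.395 by edgeR) and, in a balanced design, leaves the fast minus slow difference at 2.94, so it changed no call. All 106 values of the 8 genes under the alternatives were above 0. The stricter filter kept 2 of the 8 genes, Tnni2 and Tnni1. Leaving out each library, the log2 fold change ranged from 5.20 (without shDdr2 2) to 9.26 (without control 2) for Myh4, 1.13 to 3.88 for Myh1, 2.98 to 4.04 for Tnni2, 3.74 to 5.45 for Tnnt3, 4.09 to 5.20 for Tnnc2, 0.35 (without shDdr2 1) to 1.93 for Tnni1, 2.23 to 3.11 for Tnnt1 and 2.32 to 3.14 for Tnnc1. In the same way the difference was 3.58 to 5.55 for the fast mean, 1.53 to 2.53 for the slow mean and 1.91 to 3.66 for fast minus slow. The fast share differed by 12.2 to 20.9 percentage points for troponin I, 2.95 to 21.8 for troponin T and 4.54 to 28.0 for troponin C, and the Myh4 share by 48.0 to 72.7. The troponin I difference of 15.8 points was 25.6 on raw counts and 24.4 with the median transcript length, a setting added after seeing the data, because merged exons give Tnni1 3.6 kb. With Ryr1, Mb and Eno3 left out of the muscle genes, also chosen after seeing the data, Tnni2 and Tnni1 stood at 313 and 323 per 100 counts in control 1, which then had 30 counts of the list. Myh1 then stood at 3.50, 6.31 and 11.2 per 100 in shDdr2 1 to 3, below all controls at 13.3, 18.7 and 27.3, so that the groups no longer overlapped. Myh4 then stood at 22.5, 48.4 and 43.6 per 100, against 3.33, 20.9 and 1.27 in control 1 to 3. Its groups stayed apart by a small gap, and the 115 Myh4 counts of control 2 have a Poisson interval of 94.9 to 138. Control 1, with 1 to 4 counts for 6 of the 8 genes, limits every ratio it enters.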
